A study of Mus musculus with 8 samples.

Results

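The CD28 family receptors are 5 related surface receptors of T cells: Cd28, Ctla4, Icos, Pdcd1 and Btla. All 5 were found by symbol among the 18438 genes of the deposited table, and all 5 passed the filter on low values that left 13358 genes for testing. RNA was sequenced from splenic CD4+ T cells of C57BL/6 mice on day 7 after induction of experimental autoimmune encephalomyelitis (EAE) with the myelin protein MOG. EAE is used as a model of multiple sclerosis. Regulatory T cells (Treg) were gated as CD25hi and YFP+, and effector T cells (Teff) as CD25- and YFP-. Each was taken from wild-type mice (WT) and from mice labelled IRE1a-/- (KO). The 4 groups, Treg WT, Treg KO, Teff WT and Teff KO, held 2 libraries each, 8 in all. IRE1a, encoded by Ern1, senses unfolded proteins in the endoplasmic reticulum. All mice had EAE, so no group is free of disease. The labels do not give the age or sex of the mice, what drives YFP, which cells carry the deletion, or whether each library had its own animals. The spread behind each p-value is that between the 2 libraries of a group, pooled over the 4 groups. It may therefore be technical.

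T cells need a signal from their antigen receptor and a second one from receptors of this family to become fully activated. CD28 binds CD80 and CD86 on antigen-presenting cells and delivers that second signal, and ICOS binds ICOS ligand and supports follicular helper cells and effector Treg. CTLA-4 takes the same ligands as CD28 with higher affinity, removes them from the presenting cell and is a main suppressive molecule of Treg. PD-1, encoded by Pdcd1, binds PD-L1 and PD-L2 and restrains activated T cells. BTLA binds HVEM, a member of the TNF receptor family, and is also inhibitory.

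The genes lie close together or far apart in ways that the rule did not use. Cd28, Ctla4 and Icos form a cluster on the plus strand of chromosome 1 in GRCm38, also called mm10. Cd28 spans chr1:60716800-60773359, Ctla4 chr1:60887000-60915832 and Icos chr1:60977927-61000320, with gaps of 113640 and 62094 bases between them. Pdcd1 lies far from them on the minus strand at chr1:94038305-94052553, and Btla on the plus strand at chr16:45224315-45257670. These spans cover exons and introns. No exon of another annotated gene overlapped an exon of any of the 5, so reads without strand information are not shared with an overlapping gene.

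RefSeq promoter windows were found for 3 of the 5 receptors. The 250 bases before the start of Ctla4 and of Pdcd1 are shown because both transcripts were lower in KO Teff. Capitals mark a match to the core motif of NFAT, a factor that calcium signals from the antigen receptor switch on. The windows end before the RefSeq start. For Ctla4 this lies inside the span given above, whose first base belongs to a non-coding GENCODE transcript, and its longer coding transcript starts at base 60909025. Sequences run 5′ to 3′ on the gene's strand (RefSeq, GRCm38.p6), at chr1:60908775-60909024, plus strand, for Ctla4 and chr1:94052554-94052803, minus strand, for Pdcd1.
Ctla4: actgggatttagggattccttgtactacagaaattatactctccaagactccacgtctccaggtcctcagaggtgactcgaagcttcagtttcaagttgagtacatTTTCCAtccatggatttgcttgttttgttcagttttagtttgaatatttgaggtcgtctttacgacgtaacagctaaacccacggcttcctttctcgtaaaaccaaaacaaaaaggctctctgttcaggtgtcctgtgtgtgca
Pdcd1: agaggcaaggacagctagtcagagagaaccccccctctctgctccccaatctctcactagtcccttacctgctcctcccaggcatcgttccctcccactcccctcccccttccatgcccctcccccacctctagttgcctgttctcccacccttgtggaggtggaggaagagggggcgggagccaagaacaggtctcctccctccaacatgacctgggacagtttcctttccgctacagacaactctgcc
The NFAT core TGGAAA was searched on both strands and was found 1 time before Ctla4, from base -144 to -139, and not before Pdcd1 or Btla. It occurs in 18.6% of 32817 promoter windows of the same length. The AP-1 motif TGANTCA (6.75% of windows), the STAT motif TTCNNNGAA (7.01%), the UPRE core TGACGTG (1.65%) and the ERSE element (0.113%) were found before none of the 3. Factors of the unfolded protein response bind the UPRE and the ERSE. No match says only that these letters are not in these windows.

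The libraries were nearly even in depth, with deposited values that summed to between 17504097 and 18751258. The pan-T markers Cd3d, Cd3e, Cd3g, Cd4 and Cd247 summed to 45501 to 48413 in Treg and 54825 to 58748 in Teff libraries. Foxp3, the lineage factor of Treg, stood at 89.1 to 117 in Treg, at 0 in both Teff WT libraries and at 2.06 and 8.29 in Teff KO. Ern1 was not a check of the genotype, since its values cover the whole gene and the deleted part is not named in the labels. It stood at 377 and 399 in Treg WT, 326 and 359 in Treg KO, 559 and 616 in Teff WT, and 458 and 453 in Teff KO.

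Ctla4 set Treg apart from Teff more than any other receptor of the family did. Its normalized read number was 22976 and 22445 in Treg WT against 5351 and 5469.8 in Teff WT, and 20930.2 and 21788 in Treg KO against 4361 and 3896 in Teff KO. Every Treg library lay far above every Teff library. The log2 fold change of Treg over Teff was 2.07 in WT (SE 0.06, adjusted p = 5.75e-06) and 2.37 in KO (SE 0.06, adjusted p = 2.84e-06), which are 4.20-fold and 5.18-fold. By p-value this placed Ctla4 at rank 6 of 13358 genes in WT and rank 5 in KO. In bulk RNA such as this, fewer cells that express a gene and less RNA per cell cannot be told apart.

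Pdcd1 was also higher in Treg. It had 1912 and 1987 in Treg WT and 1166 and 1315 in Teff WT, a log2 fold change of 0.65 (SE 0.08, 95% interval 0.47 to 0.84, adjusted p = 0.00106). In KO it had 2192 and 2085 in Treg and 767 and 784 in Teff, a log2 fold change of 1.46 (SE 0.08, adjusted p = 2.71e-05). The groups did not overlap in either genotype.

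Icos showed a gap between the cell types that passed the test in KO and not in WT. Its values were 4396 and 4475 in Treg WT, 3948 and 4024 in Teff WT, 5034 and 4752 in Treg KO, and 3233 and 2762 in Teff KO. The log2 fold change of Treg over Teff was 0.15 in WT (SE 0.08, adjusted p = 0.208) and 0.71 in KO (SE 0.08, adjusted p = 0.000578). The difference between these 2 values equals the difference between the KO effects in Treg and Teff, which did not pass its own test (0.56, SE 0.11, adjusted p = 0.157).

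Btla ran the other way, with less transcript in Treg. It had 2171 and 1982 in Treg WT against 2885 and 2866 in Teff WT (log2 fold change -0.47, SE 0.07, adjusted p = 0.00311). In KO it had 2547 and 2328 against 3046 and 3202 (log2 fold change -0.36, SE 0.07, adjusted p = 0.00990). The KO value lost its call without Treg KO replicate 2 (adjusted p = 0.0671) and without Teff KO replicate 2 (adjusted p = 0.0548). B cells also express Btla. Of the B cell markers, Ms4a1 stood between 11.4 and 30.7 over the 8 libraries, Cd79a between 24.8 and 54.0, and Cd79b at 186 to 253 in Treg and at most 33.7 in Teff. Pax5 stood at 168 in Teff KO replicate 2 and at 9.06 to 17.7 in the other Teff libraries. Their part in the Btla values was not tested.

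Cd28 did not pass the test between the cell types in either genotype. It had 8067 and 8288 in Treg WT and 9864 and 9193 in Teff WT (log2 fold change -0.22, SE 0.07, adjusted p = 0.0560). This fell under 0.05 with upper-quartile scaling (adjusted p = 0.0474) and without Teff KO replicate 1 or 2 (adjusted p = 0.0260 and 0.0258). In KO it had 8971 and 8717 in Treg and 9149 and 8091 in Teff, which overlapped (log2 fold change 0.04, 95% interval -0.12 to 0.20, adjusted p = 0.719).

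In WT, 3 of 5 receptors passed the test between Treg and Teff, against 25.1% of all tested genes. Of these, 2 were higher in Treg (13.5% of tested genes were) and 1 was lower (11.6%). In KO, 4 of 5 passed (26.9% of tested genes), 3 of them higher (15.7%) and 1 lower (11.2%). The Treg and Teff libraries did not overlap for 5 of 5 receptors in WT and 4 of 5 in KO. The same held for 63.5% and 64.9% of tested genes, so lack of overlap between 2 and 2 libraries is common here.

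**Figure D1:**
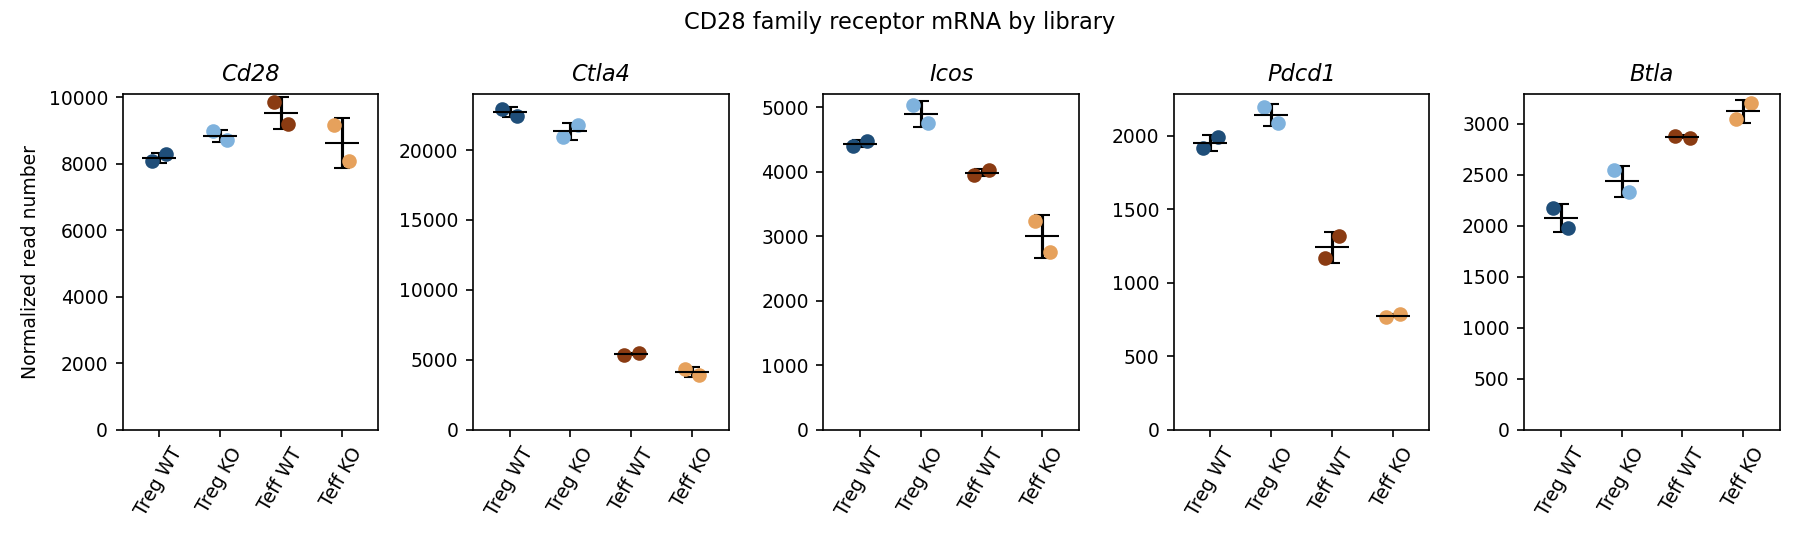
Normalized read number (vertical axes, from 0, a different scale for each gene) of each receptor in every library, by group; points are libraries, bars the mean and SD of 2 libraries. The 4 Treg libraries lie between 20930.2 and 22976 for Ctla4 and the 4 Teff libraries between 3896 and 5469.8, and the Teff KO points are the lowest of their panels for Ctla4, Icos and Pdcd1.

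**Figure D2:**
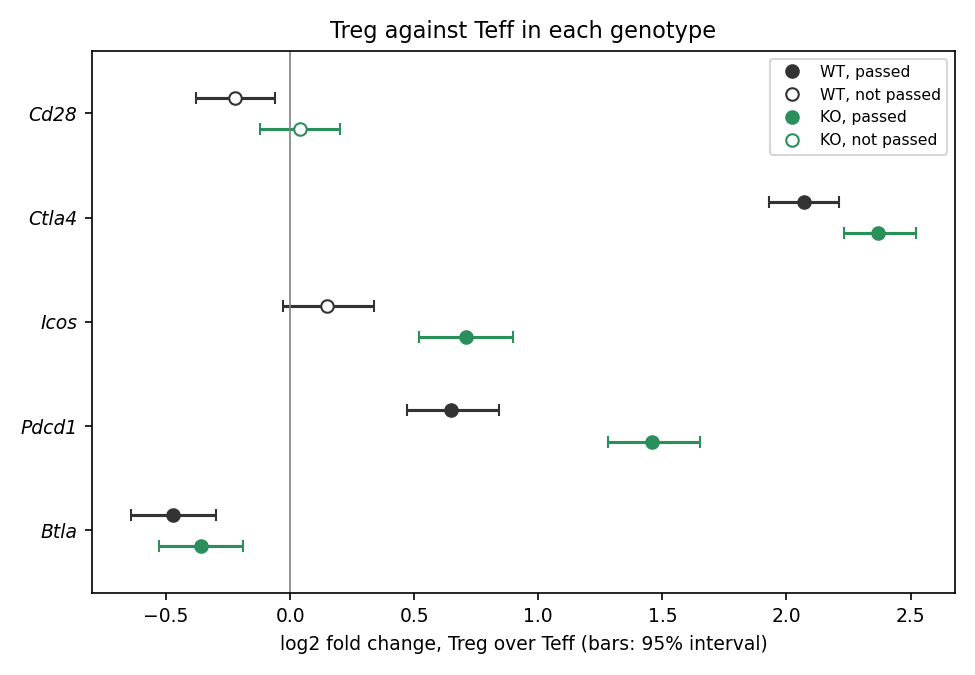
Log2 fold change of Treg over Teff (horizontal axis) in WT and in KO for each receptor; bars are 95% intervals from limma and filled points have an adjusted p below 0.05. Ctla4 stands at 2.07 and 2.37, Btla lies below 0 in both genotypes, and Icos passes in KO only.

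Levels of different genes can be set side by side only per length, so each value was divided by the merged length of the gene's annotated exons in kilobases. On this scale Ctla4 came first in every group, with 9747 ± 161 reads per kilobase in Treg WT, 9167 ± 260.4 in Treg KO, 2322 ± 36.1 in Teff WT and 1772 ± 141 in Teff KO (SD, n = 2). Cd28 came second in every group, at 1336 ± 25.4, 1445 ± 29.3, 1556 ± 77.5 and 1408 ± 122. In Treg WT the mean of Ctla4 was 7.30 times that of Cd28, and in Teff WT 1.49 times.

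The lower places in the order differed between the cell types. In Treg WT, Cd28 was followed by Icos (1293 ± 16.4), Pdcd1 (1010.2 ± 27.6) and Btla (611 ± 39.4), and in Treg KO by Icos (1426 ± 58.1), Pdcd1 (1108 ± 38.9) and Btla (718 ± 45.6). In Teff WT, Icos (1162 ± 15.6) was followed by Btla (847 ± 4.02) and then Pdcd1 (643 ± 54.5). In Teff KO, Btla (919.8 ± 32.5) stood beside Icos (874 ± 96.9), and Pdcd1 (402 ± 6.02) was lowest. The libraries of neighbours in the order did not overlap, except for Cd28 and Icos in Treg KO and for Btla and Icos in Teff KO, which did not differ beyond their spread. The order of the group means was the same when the longest coding transcript was used as the length. Ctla4 and Cd28 were then closer in Teff KO, with means of 2136 and 1983. Overlap between libraries was not checked on that length.

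**Figure D3:**
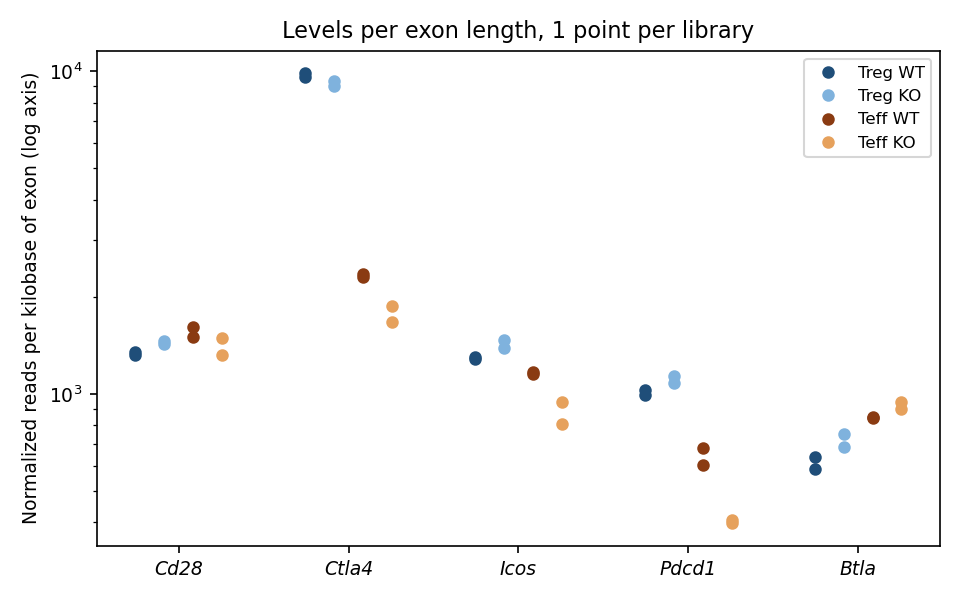
Normalized reads per kilobase of merged exon (vertical log axis) for each receptor, with 1 point per library coloured by group. Ctla4 in Treg lies at 8983 or above in every library, and the lowest points are those of Pdcd1 in Teff KO, at 398 and 406.

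In Teff, 3 of the 5 receptors were lower in KO than in WT. Pdcd1, Icos and Ctla4 fell by 37.3%, 25.0% and 23.8%. Cd28 and Btla did not pass the test. Of all tested genes, 6.92% passed in this comparison, 5.08% as lower. The KO and WT libraries did not overlap for any of the 5 receptors, as for 49.8% of tested genes.

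Of the 6 Treg markers tested in the Teff sort, 3 were called lower in KO and 2 higher. Of all tested genes, 6.92% passed in this comparison, 5.08% as lower. Ikzf2 fell from 1656 and 2724 to 1185 and 969 (log2 fold change -0.99, adjusted p = 0.0406), and Nrp1 and Capg also fell (-0.58 and -0.71). Gpr83 rose from 184 and 189 to 325 and 361 (0.88, adjusted p = 0.00279). Foxp3 was also called higher, at 0 in both Teff WT libraries and at 2.06 and 8.29 in Teff KO. These values lay under the filter of 10, which Foxp3 passed through its Treg libraries. The Foxp3 and Ikzf2 calls were each lost without any 1 of 7 of the 8 libraries, all but Teff KO replicate 1 for Foxp3 and Teff WT replicate 1 for Ikzf2. The Nrp1 and Capg calls were lost without Teff KO replicate 2, and that of Capg also without Teff WT replicate 2. Il2ra, which encodes CD25, did not pass (-0.40, adjusted p = 0.0904). The markers summed to 4992 and 6409 in Teff WT and 3374 and 3873 in Teff KO, and their part in the values of the receptors was not tested.

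Pdcd1 had 1166 and 1315 in Teff WT and 767 and 784 in Teff KO. Both KO libraries lay well below both WT libraries. The log2 fold change was -0.67 (SE 0.08, 95% interval -0.86 to -0.49, adjusted p = 0.00511), rank 127 of 13358 by p-value. The call held under all 18 alternatives run, with adjusted p up to 0.0488 and log2 fold changes between -0.76 and -0.59.

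Ctla4 had 5351 and 5469.8 in Teff WT and 4361 and 3896 in Teff KO, also without overlap. The log2 fold change was -0.39 (SE 0.06, 95% interval -0.54 to -0.25, adjusted p = 0.0136). The call was lost without Teff WT replicate 2 (adjusted p = 0.0682), without the trend and robust options of limma (0.0743) and when only the groups compared were fitted (0.0782).

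Icos had 3948 and 4024 in Teff WT and 3233 and 2762 in Teff KO, where the second KO library was the lowest of all 8. The log2 fold change was -0.42 (SE 0.08, 95% interval -0.60 to -0.23, adjusted p = 0.0260). This call held in 11 of 18 alternatives. It was lost without Teff WT replicate 1 or 2 (adjusted p = 0.0811 and 0.114), without Teff KO replicate 2 (0.0752), without Treg WT replicate 1 or 2 (0.0556 and 0.0560), without limma's trend and robust options (0.0939) and when only the groups compared were fitted (0.0987).

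Cd28, with 9864 and 9193 in Teff WT and 9149 and 8091 in Teff KO, had a log2 fold change of -0.15 (95% interval -0.31 to 0.02, adjusted p = 0.275). The higher KO library nearly reached the lower WT library. Btla, with 2885 and 2866 in WT and 3046 and 3202 in KO, had a log2 fold change of 0.12 (95% interval -0.05 to 0.29, adjusted p = 0.403). In the authors' deposited table, Pdcd1, Icos and Ctla4 had log2 fold changes of -0.68, -0.41 and -0.39 in Teff, with adjusted p = 5.49e-08, 0.000257 and 2.14e-06. Cd28 and Btla had adjusted p = 0.329 and 0.587 in the authors' deposited table.

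In Treg, none of the 5 receptors passed limma's test between KO and WT, where 1.45% of tested genes did. At an unadjusted p below 0.05 there was 1, Btla, against 14.7% of tested genes. None had an adjusted p below 0.05 in the authors' deposited table, where the lowest was 0.200, for Btla. Btla had 2171 and 1982 in Treg WT and 2547 and 2328 in Treg KO (log2 fold change 0.23, 95% interval 0.06 to 0.40, adjusted p = 0.199). Among B cell markers, Pax5 stood at 178 and 162 in Treg KO against 5.74 and 2.87 in Treg WT, while Cd79b stood at 186 and 224 against 230.1 and 253. Their part in the Btla value was not tested.

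Icos had 4396 and 4475 in Treg WT and 5034 and 4752 in Treg KO (log2 fold change 0.14, 95% interval -0.04 to 0.33, adjusted p = 0.481). Pdcd1 had 1912 and 1987 against 2192 and 2085 (0.13, 95% interval -0.05 to 0.32, adjusted p = 0.504), and Cd28 8067 and 8288 against 8971 and 8717 (0.11, 95% interval -0.05 to 0.27, adjusted p = 0.515). Ctla4 was the receptor with KO values below WT in Treg, at 22976 and 22445 in WT and 20930.2 and 21788 in KO (-0.09, 95% interval -0.23 to 0.06, adjusted p = 0.572). The KO and WT libraries of Treg did not overlap for 5 of 5 receptors, as for 48.7% of tested genes. These intervals leave room for differences up to their bounds, so the receptors are not shown to be equal in the 2 genotypes.

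**Figure D4:**
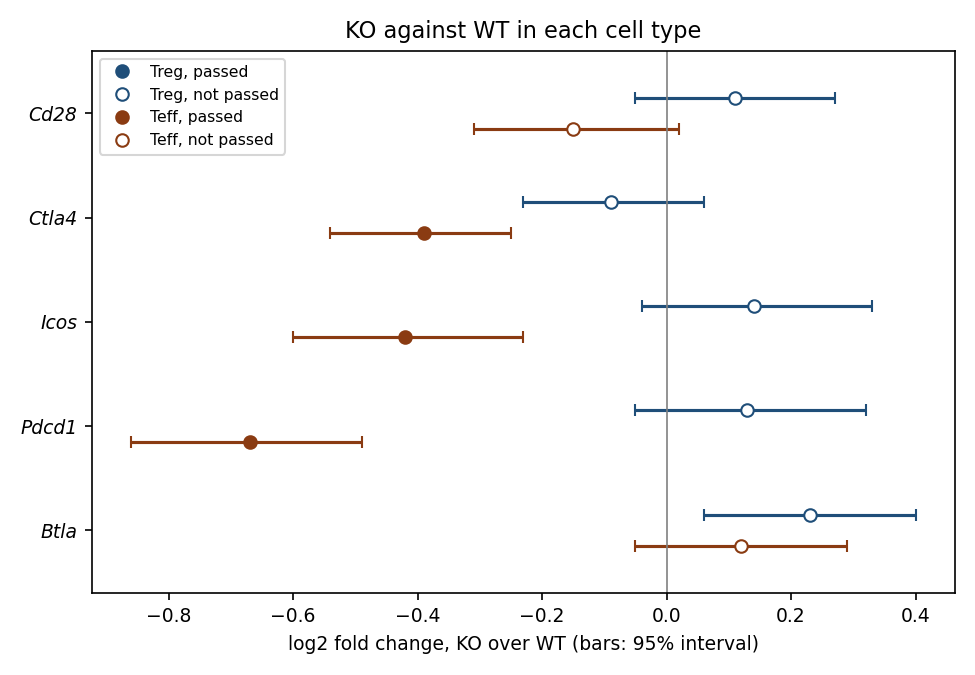
Log2 fold change of KO over WT (horizontal axis) in Treg and in Teff for each receptor; bars are 95% intervals from limma and filled points have an adjusted p below 0.05. The filled points are Ctla4, Icos and Pdcd1 in Teff, at -0.39, -0.42 and -0.67, and no Treg point is filled.

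Whether the KO effect differed between the cell types was tested directly. The KO effect in Treg minus that in Teff was above 0 for all 5 receptors and for 52.9% of tested genes. No receptor passed limma's adjusted test, which 0.0225% of tested genes (3 genes) did. At an unadjusted p below 0.05 there were 4 of 5 receptors, against 10.4% of tested genes. Pdcd1 had the largest difference, 0.81 (SE 0.11, 95% interval 0.55 to 1.07, unadjusted p = 0.000146, adjusted p = 0.0825), at rank 22 of 13358 by p-value. Icos followed at 0.56 (adjusted p = 0.157), Ctla4 at 0.30 (adjusted p = 0.302), Cd28 at 0.26 (adjusted p = 0.418) and Btla at 0.11 (adjusted p = 0.783). A difference in KO effect between the cell types is therefore not shown after adjustment for any receptor. The 95% intervals of limma in Treg did not reach the Teff log2 fold changes of -0.67, -0.42 and -0.39 for Pdcd1, Icos and Ctla4. They ran from -0.05 to 0.32, -0.04 to 0.33 and -0.23 to 0.06, without adjustment over genes. The Teff values carry errors of their own, with intervals of -0.86 to -0.49, -0.60 to -0.23 and -0.54 to -0.25. These receptors were also picked because they passed in Teff. Setting the Treg intervals beside the Teff values is therefore not a test of a difference. Smaller falls in Treg lie within the Treg intervals.

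Inhibitory and activating receptors can be set against each other within a library. These values are not per length, so their sign does not say which gene is higher, and only differences between libraries are read. The log2 value of Ctla4 minus that of Cd28 was 1.51 and 1.44 in Treg WT, 1.22 and 1.32 in Treg KO, -0.88 and -0.75 in Teff WT, and -1.07 and -1.05 in Teff KO. It was lower in KO by 0.20 on average in Treg and 0.25 in Teff, and KO and WT libraries did not overlap in either. Such lack of overlap is common here, since single genes showed it for 48.7% of tested genes in Treg and 49.8% in Teff. For Pdcd1 minus Icos the values were -1.20 and -1.17 in Treg WT, -1.20 and -1.19 in Treg KO, -1.76 and -1.61 in Teff WT, and -2.07 and -1.82 in Teff KO. The KO mean lay 0.01 from the WT mean in Treg and 0.26 below it in Teff. In Teff the KO and WT libraries did not overlap for this pair either. No test of these differences was run, since an exact permutation test of 2 against 2 libraries cannot give a p below 0.333.

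The ligands of the family are best known from antigen-presenting cells, but 5 of 6 on the list were measured in these sorts. Cd86, which encodes a shared ligand of CD28 and CTLA-4, had 105 and 116 in Teff WT and 38.3 and 25.8 in Teff KO (log2 fold change -1.78, SE 0.24, adjusted p = 0.00769). In Treg it had 448 and 517 in WT and 386 and 287 in KO, which did not pass (-0.53, adjusted p = 0.367). Cd274 encodes PD-L1, the ligand of PD-1. It fell from 1699 and 1584 in Teff WT to 1232 and 1139 in Teff KO (log2 fold change -0.47, SE 0.07, adjusted p = 0.0133), a call lost without Teff WT replicate 1 or Teff KO replicate 2 (adjusted p up to 0.0726 over 18 alternatives). It had 2773 and 2954 in Treg WT and 2450.2 and 2368 in Treg KO (-0.25, adjusted p = 0.175).

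Icosl, the ligand of ICOS, had 356 and 454 in Teff WT and 293 and 277 in Teff KO (-0.49, adjusted p = 0.0843). Tnfrsf14, which encodes the BTLA ligand HVEM, had a log2 fold change of 0.10 in Teff and -0.11 in Treg and passed in neither. Cd80, the other shared ligand of CD28 and CTLA-4, had -0.09 and -0.06 and passed in neither. In all, 2 of 5 ligands fell in KO Teff (median log2 fold change -0.47, against -0.02 over all tested genes). In Treg, 0 of 5 passed limma's test (2 at an unadjusted p below 0.05) with a median of -0.25. Over all tested genes, 6.92% passed in Teff, 5.08% as lower, and 1.45% passed in Treg, where 14.7% had an unadjusted p below 0.05. These shares apply to each list below.

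Cd86, Cd274 and Cd80 were higher in Treg than in Teff in WT, with log2 fold changes of 2.11, 0.80 and 1.53 (adjusted p = 0.000759, 0.000321 and 0.00856). The Cd80 call was lost without Treg WT replicate 1 or Teff WT replicate 1 (adjusted p up to 0.0540). Macrophages express these genes too. The macrophage and monocyte markers Lyz2, Csf1r, Itgam, C1qa and Cd68 summed to 7275 and 7419 in Treg WT, 4369 and 4488 in Treg KO, 884 to 1201 in Teff WT and 511 to 591 in Teff KO. C1qa, a complement gene of macrophages, stood at 2403 and 2422 in Treg WT and 1451 and 1427 in Treg KO. Dendritic cell markers (Itgax, Flt3, Siglech and Zbtb46) summed to 348 to 369.6 in Treg WT, 187 to 211 in Treg KO, 918 to 1591 in Teff WT and 385 to 723 in Teff KO. The macrophage sum, like the 3 ligands, was higher in Treg than in Teff, and the dendritic sum was lower in Treg. Not every marker followed its sum. Itgam stood at 77.3 and 28.0 in Treg WT and 186 and 330.2 in Teff WT, and Zbtb46 at 295 and 278 against 101 and 153. Itgam in Treg KO, at 33.1 and 116, overlapped Treg WT. Between KO and WT, 0 macrophage markers were called in either cell type, and 1 dendritic marker in Teff and 0 in Treg. Both sums were lower in KO than in WT in each cell type, as were the values of Cd86 and Cd274, while those of Cd80 overlapped. Their part in the ligand values was not tested.

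Of 22 proximal signalling genes, which act in the steps behind the receptors, 2 fell in KO Teff and 0 rose (median -0.04), where 6.92% of all tested genes passed in either direction. They were Zap70, the kinase that starts antigen receptor signalling (log2 fold change -0.28, adjusted p = 0.0314), and Lcp2, the adaptor SLP-76 (-0.30, adjusted p = 0.0488). The Zap70 call was lost without any 1 of the 8 libraries and the Lcp2 call without any 1 of 7 of them, all but Teff KO replicate 2, with adjusted p up to 0.132 for Zap70 and 0.193 for Lcp2 over 18 alternatives. In Treg, 0 of 22 passed limma's test between KO and WT (4 at an unadjusted p below 0.05). The smallest adjusted p there was that of Pik3r1, a regulatory subunit of the kinase PI3K (0.33, adjusted p = 0.0626). Between Treg and Teff of WT, 9 of the 22 were lower in Treg and 2 higher, against 11.6% and 13.5% of tested genes. Grap2, the adaptor GADS, had 5131 and 4916 in Treg WT and 9101 and 9449 in Teff WT (log2 fold change -0.88, adjusted p = 3.51e-05).

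Among 10 tested genes that carry inhibitory signals, 1 fell and 1 rose in KO Teff. Rnf128, which encodes the ubiquitin ligase GRAIL, had 134 and 154 in WT and 79.4 and 60.8 in KO (log2 fold change -1.04, adjusted p = 0.0229). Dgka, a kinase that removes diacylglycerol, had 24116 and 21942 in WT and 27425 and 29657 in KO (0.31, adjusted p = 0.0259). Leaving out Teff WT replicate 2 or Teff KO replicate 2 ended both calls, and further single libraries ended one or the other (adjusted p up to 0.114 and 0.125 over 18 alternatives). Ptpn11, which encodes SHP-2, the phosphatase that PD-1 recruits, had -0.50 (adjusted p = 0.0515). In Treg, 0 of 10 passed limma's test (2 at an unadjusted p below 0.05).

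Of 5 tested genes that move CTLA-4 within the cell, 0 passed limma's test between KO and WT in Treg (2 at an unadjusted p below 0.05) or in Teff (1 at an unadjusted p below 0.05). Over all tested genes, 14.7% in Treg and 21.6% in Teff had an unadjusted p below 0.05. Lrba, which protects CTLA-4 from lysosomal breakdown, was higher in Treg than in Teff, with a log2 fold change of 0.74 in WT (adjusted p = 0.000380) and of 0.83 in KO (adjusted p = 0.000154). It had 3007 and 3019 in Treg WT against 1824 and 1794 in Teff WT. Def6 was lower in Treg, at -0.20 in WT (adjusted p = 0.0447) and -0.24 in KO (adjusted p = 0.0234). Its WT call was lost without any single library, and its KO call without any single KO library. Of the 5, 1 was called higher in Treg and 1 lower in WT, against 13.5% and 11.6% of tested genes. In KO these were 2 and 1, against 15.7% and 11.2%.

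Of 6 genes for mRNA decay factors, including the Roquin genes Rc3h1 and Rc3h2 and the Regnase-1 gene Zc3h12a, which are known to limit Icos and Ctla4 mRNA, 1 fell in KO Teff. That was Zfp36, with 23362 and 24266 in WT and 17209 and 14635 in KO (log2 fold change -0.59, adjusted p = 0.00681, at most 0.0505 over 18 alternatives). Zc3h12a had -0.18 (adjusted p = 0.589). In Treg, 0 of 6 passed limma's test (3 at an unadjusted p below 0.05).

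Of 14 tested transcription regulators of these receptors, 6 fell and 1 rose in KO Teff, with a median log2 fold change of -0.39. Of all tested genes, 6.92% passed there, 5.08% as lower. Tox, a nuclear factor of chronically stimulated and follicular helper cells, fell from 1759 and 1686 to 1035 and 1049 (log2 fold change -0.72, adjusted p = 0.00142). Irf4, which antigen receptor signals induce, fell from 1469 and 1774 to 896 and 881 (-0.86, adjusted p = 0.00438), and Tbx21, which encodes T-bet, from 609.7 and 667 to 329 and 313 (-0.99, adjusted p = 0.00582). Batf, Bcl6 and Maf also fell. The gene that rose was Foxp3, listed at 0 in both Teff WT libraries, so that no fold is given. Its Teff KO values of 2.06 and 8.29 lay under the filter of 10, which it passed through the Treg libraries. The call held in 5 of 17 alternatives and was lost when 10 instead of 1 was added to each value (adjusted p = 0.228). In Treg, 1 of 14 fell, Irf4 (-0.56, adjusted p = 0.0429), and that call was lost without any single Treg library or either Teff KO library (adjusted p up to 0.224).

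Of 8 genes that CD28 signals are known to raise, 2 fell in KO Teff: Tnfrsf4, which encodes OX40 (log2 fold change -0.87, adjusted p = 0.00246), and Bcl2l1, which encodes the survival protein BCL-XL (-0.66, adjusted p = 0.0121). The Bcl2l1 call was lost without Teff WT replicate 2 or either Teff KO library (adjusted p up to 0.0682 over 18 alternatives). In Treg, 0 of 8 passed limma's test (2 at an unadjusted p below 0.05). Between Treg and Teff of WT, Tnfrsf4 was higher in Treg (2.76, adjusted p = 5.75e-06), while Cd40lg, which encodes CD40 ligand, was lower (-2.65, adjusted p = 5.75e-06).

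Icos and Pdcd1 are also markers of follicular helper T cells (Tfh), so other Tfh genes are given beside them. Of 11 tested Tfh genes without the receptors, 9 fell in KO Teff and none rose, with a median of -0.73. Of all tested genes, 5.08% fell. Bcl6, Tox and Maf are among these 9 and also among the transcription regulators above. Sostdc1 had -1.80 and Bcl6, the lineage factor of Tfh, -0.63 (adjusted p = 0.00143 and 0.00677). In Treg, 1 of 11 fell, Sostdc1 (-0.84, adjusted p = 0.0429), a call lost without any 1 of 7 of the 8 libraries, all but Treg KO replicate 2 (adjusted p up to 0.230). Among 10 naive or resting T cell genes, 4 rose in KO Teff (median 0.27) and 4 in KO Treg (median 0.41). Of 17 proliferation genes, 9 fell in KO Teff (median -0.89) and 2 in KO Treg (median -0.31). The median over all tested genes was -0.02 in Teff and -0.0083 in Treg, and 6.92% and 1.45% of them passed in either direction. In KO Teff the Tfh and proliferation lists fell, as Pdcd1, Icos and Ctla4 did, while the naive and resting list rose. In KO Treg the proliferation median was also below 0, while that of the receptors was 0.13. The part of these lists in the values of the receptors was not tested. A different mix of naive, activated and Tfh cells in the sort cannot be told apart from a change within cells.

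**Figure D5:**
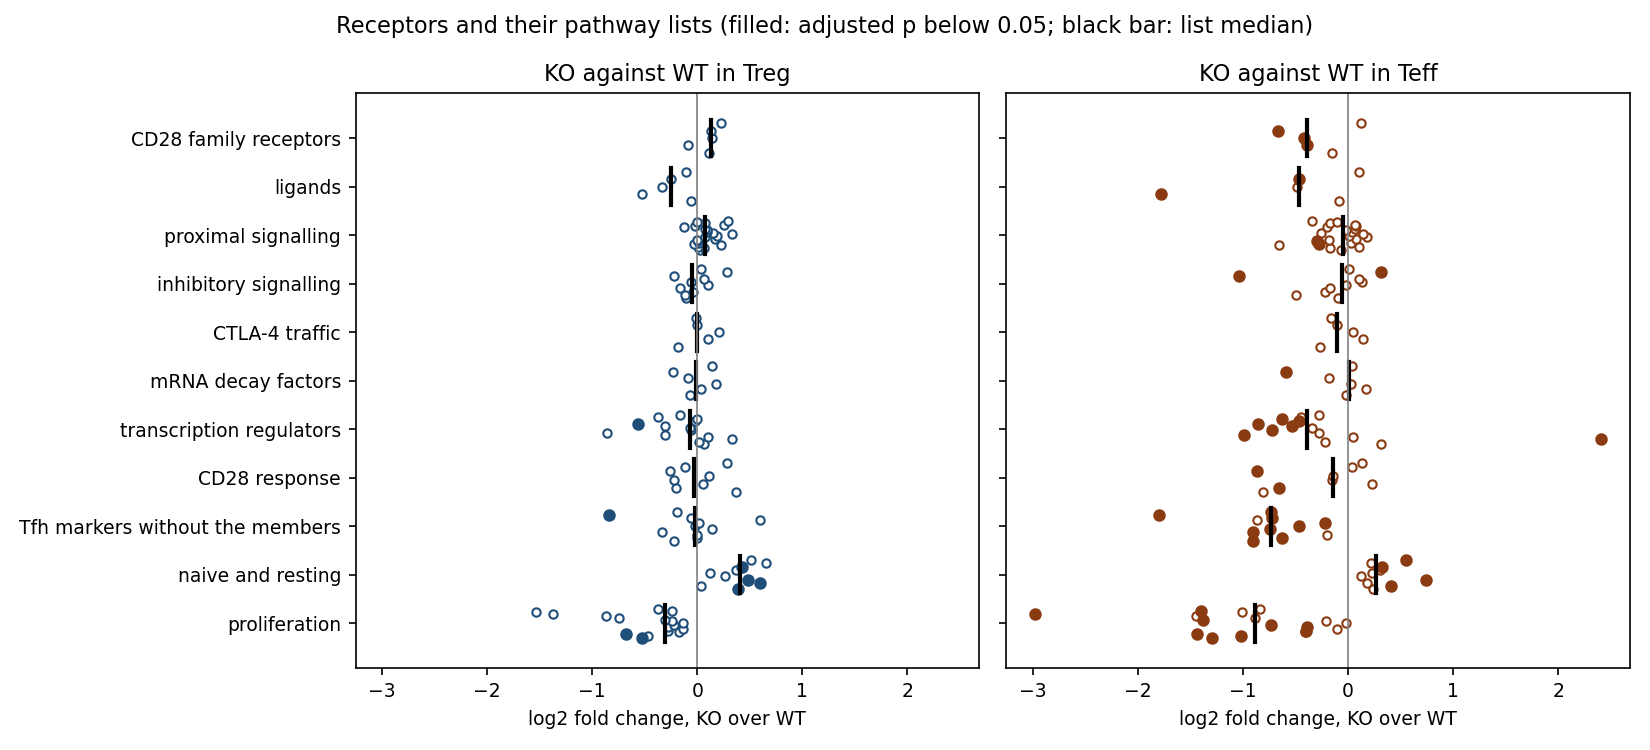
Log2 fold change of KO over WT (horizontal axes) for the 5 receptors and each tested member of 10 pathway and cell state lists, in Treg (left) and Teff (right); filled points have an adjusted p below 0.05 and black bars are list medians. The receptor median is 0.13 in Treg and -0.39 in Teff, and the Tfh genes have medians of -0.02 and -0.73.

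The cluster on chromosome 1 was compared with its surroundings, chosen by position after the receptors' values were known. Within 1000 kb of the span from Cd28 to Icos lay 11 other protein-coding genes that were tested. None passed limma's adjusted test between KO and WT in Teff or in Treg, where 6.92% and 1.45% of all tested genes did. In Teff, Ica1l (log2 fold change -0.62, adjusted p = 0.422), Bmpr2 (-0.52, adjusted p = 0.0806) and Cyp20a1 (-0.45, adjusted p = 0.150) lay below Ctla4 and Icos. Nop58, Fam117b, Carf, Nbeal1 and Pard3b lay above 0 there. Raph1, the nearest gene on the Cd28 side, had a log2 fold change of -0.07 in Teff (adjusted p = 0.849), and Pard3b, the nearest on the Icos side, stood below 15 in every group mean. Ctla4 and Icos were the called genes of this stretch in Teff, while their cluster neighbour Cd28 had -0.15. The receptors and these neighbours were measured in the same libraries.

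Genes with the most similar profile over the 8 libraries were found for each receptor as the smallest root mean square difference between log2 profiles centred on their means, among 10393 genes with a mean of at least 50. For Ctla4 these were Ptger2, a prostaglandin E2 receptor gene (0.059), Wls (0.061) and Itih5 (0.084). Ptger2 had 2284 and 2243 in Treg WT, 2002 and 2018 in Treg KO, 507 and 538 in Teff WT, and 394 and 345 in Teff KO. For Pdcd1 they were Lxn (0.097), Prkca, which encodes protein kinase C alpha (0.099), and Igsf9b (0.101). For Icos they were Fryl (0.075), Cog5 (0.076) and Matk (0.091).

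For Btla the closest were Plcxd2 (0.039), Prkcq (0.043) and Nsun5 (0.054), where Prkcq encodes protein kinase C theta, which acts downstream of CD28. Prkcq had 5480.2 and 5338 in Treg WT, 6600.2 and 6301 in Treg KO, 7585 and 7271 in Teff WT, and 7574 and 8061 in Teff KO. For Cd28 they were Shkbp1 (0.039), Eif5b (0.044) and Zyx (0.048). No receptor was among the closest genes of another. The smallest difference between 2 receptors was that of Cd28 and Btla, at 0.209, and that of Pdcd1 and Icos was 0.334.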

How the data were processed

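Messenger RNA of sorted splenic Treg and Teff was measured in 8 libraries, 2 for each of 4 groups set by the cell type and genotype labels. Per the labels' protocols, polyadenylated RNA was selected, cDNA was primed with random hexamers and amplified, and sequencing was single-end (DNBSEQ), with no step named that marks strand or single molecules. Salmon 0.14.1, Trim Galore 0.4.4, DESeq2 1.28.1, R 4.0.3 and the mm10 build are named, with no order, in the submitters' processing notes. How transcripts were summed to genes is not stated there. The deposited signal values are normalized read numbers. Of positive values, 28.3% to 29.1% were whole multiples of the commonest step (tolerance 0.02), so whole reads were not recoverable and count models were not used. Sums over that step put depth near 17795407 to 18595428 reads, an estimate. The authors' deposited log2 fold changes and adjusted p-values are quoted only where named.

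The test was that of limma 3.58.1 on log2(value + 1) in R 4.3.3 (trend and robust empirical Bayes), 1 coefficient per group over 8 libraries, 4 residual degrees of freedom. Genes reaching 10 in at least 2 libraries were tested, with Benjamini-Hochberg adjustment over all 13358 in each of 5 contrasts, called at 0.05. On simulated data for KO against WT in Teff over 13358 genes, 50 genes were changed by each of 0.4, 0.7, 1 and 2 on the log2 scale. Of these, 8%, 34%, 54% and 76% were recovered, and 5.49% of calls were false. Fewer genes were changed there than were called in these data (924), so the rates need not hold here. Named genes were the receptors, Ern1 and Foxp3 as checks, up to 3 members per list and contrast of smallest p, and 3 genes of most similar profile, and some listed genes are not reported here. Members and lists were chosen with earlier results of these data known. Lengths and coordinates came from GENCODE M21 (GRCm38). Alternatives changed the pseudocount, filter, scaling, shrinkage, groups fitted, replicate block and libraries. Figures were drawn with matplotlib 3.10.9, and tables made with pandas 2.3.3 and numpy 2.4.6 in Python 3.11.15.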

Additional observations from a re-analysis of the deposited data

How the results depend on the processing

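Each receptor was recomputed under 18 alternatives in each comparison, or 17 for the difference between KO effects. Of 445 such values, 429 kept their direction and their side of the threshold, 12 lost a call, 3 gained one and 1 changed sign. The change of sign was that of Cd28 for Treg against Teff in KO, which was -0.05 without Teff KO replicate 2 and 0.13 without Teff KO replicate 1, and at most 0.18 over its 18 alternatives. The number of receptors called for KO against WT in Teff was 3. It was 1 without the trend and robust options and 1 when only the groups compared were fitted, with Pdcd1 the receptor that remained in both, and between 1 and 3 when a single library was left out. The cause was not tested. The same-numbered libraries did not deviate together (correlations between -0.04 and 0.08 over 10393 genes), so the numbers are not taken as pairs. With the replicate block, 3 receptors were called for KO against WT in Teff, as without it, and no receptor's call changed in the other comparisons. Called list members in KO Teff ranged over the alternatives from 4 to 9 for Tfh genes, 4 to 10 for proliferation, 1 to 6 for naive and resting genes, 3 to 8 for transcription regulators, 0 to 2 for ligands and proximal signalling, 0 to 3 for inhibitory signalling, 0 to 2 for mRNA decay factors and 1 to 2 for CD28 response genes. In KO Treg they ranged from 1 to 4 for naive and resting genes, 0 to 2 for proliferation, and 0 to 1 for transcription regulators, Tfh, proximal and inhibitory signalling genes. Precision rests on 2 libraries per group.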
